A study of Mus musculus with 6 samples.

Results

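Cartilage matrix proteins were followed in calvaria (skull vault bone) through 10 genes for matrix proteins other than collagen: Acan, Matn1, Matn3, Matn4, Hapln1, Comp, Lect1, Chad, Epyc and Ucma. They are a list of cartilage genes given by name, and all 10 were found among the 23358 genes of the count table and passed its low-count filter (16089 genes tested). The bones came from mice of 2 to 3 days, digested for 20 minutes with collagenase type II and trypsin before freezing. Total RNA was sequenced from 3 libraries labelled wild type (WT 14, WT 27 and WT 29) and 3 labelled Ezh2 conditional knockout (cKO 8, cKO 10 and cKO 37). The names of both groups include Osx, an alias of the osteoblast transcription factor gene Sp7. The sources used here do not give the construct behind that name, whether the wild type animals carry it, the sex of the animals or how many animals a library holds. Each p-value therefore measures the spread between these libraries, which may be technical.

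Cartilage is a tissue of chondrocytes embedded in a hydrated matrix. Collagen fibrils give it tensile strength, and aggrecan, a proteoglycan loaded with chondroitin sulfate, holds the water that resists compression. Link protein fastens aggrecan to hyaluronan, and matrilins and cartilage oligomeric matrix protein connect these aggregates to the fibrils. The skull vault ossifies within membrane, without a cartilage template, but around birth remnants of the cartilaginous skull lie against its borders and its inner face. These genes are expressed mainly by chondrocytes, and some of them, such as Comp and Matn4, by other connective tissues too. In bulk RNA a smaller number of chondrocytes and less RNA per chondrocyte cannot be told apart.

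Read totals over genes ran from 60449016 (cKO 10) to 95439578 (WT 29), and every count was even. The bone label matched the markers: the bone collagen gene Col1a1 lay between 44382 and 99704 CPM (counts scaled to a common library size, with TMM, the trimmed mean of M values) and Sp7 between 201 and 253 in WT and 167 and 184 in cKO. Markers of skeletal muscle and keratinocytes were scarce, with summed levels of at most 9.93 CPM (9 genes) and 5.44 CPM (6 genes). Ezh2 itself was 20.4 to 21.7 CPM in WT and 19.2 to 20.6 CPM in cKO. The deleted part of the gene is not named in the sources, so these counts do not check the labels, and the group names rest on the labels alone.

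The start regions of members with contrasting patterns are shown first, because the results turn on the contrast between Matn1 and Lect1, whose levels varied widely between libraries, and Matn4 and Chad, whose levels varied less. Each line holds the 250 bases before the RefSeq start site on GRCm38.p6, the assembly also called mm10, written 5′ to 3′ on the strand of the gene, and capitals mark matches to the motifs named after them (Lect1 and Matn4 have none).
Matn1 (chr4:130944135-130944384, plus strand): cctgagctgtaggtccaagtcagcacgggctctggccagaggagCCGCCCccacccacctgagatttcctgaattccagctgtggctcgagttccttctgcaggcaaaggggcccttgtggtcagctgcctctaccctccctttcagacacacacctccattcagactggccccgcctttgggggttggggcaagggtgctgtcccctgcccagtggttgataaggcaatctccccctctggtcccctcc
Lect1 (chr14:79662184-79662433, minus strand): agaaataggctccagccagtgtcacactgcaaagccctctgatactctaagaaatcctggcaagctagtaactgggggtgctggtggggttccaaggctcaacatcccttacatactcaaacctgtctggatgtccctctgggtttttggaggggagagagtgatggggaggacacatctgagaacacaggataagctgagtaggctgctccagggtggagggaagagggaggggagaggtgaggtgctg
Matn4 (chr2:164405161-164405410, minus strand): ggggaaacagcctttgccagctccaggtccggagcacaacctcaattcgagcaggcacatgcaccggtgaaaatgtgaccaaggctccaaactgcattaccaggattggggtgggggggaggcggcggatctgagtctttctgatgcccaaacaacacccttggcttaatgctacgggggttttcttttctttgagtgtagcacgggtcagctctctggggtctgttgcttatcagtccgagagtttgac
Chad (chr11:94564797-94565046, plus strand): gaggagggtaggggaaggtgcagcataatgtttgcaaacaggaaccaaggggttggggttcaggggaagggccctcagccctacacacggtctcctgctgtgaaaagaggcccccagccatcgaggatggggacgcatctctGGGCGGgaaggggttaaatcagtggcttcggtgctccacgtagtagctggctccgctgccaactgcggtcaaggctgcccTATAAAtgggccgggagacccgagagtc
Among 9 members with a RefSeq promoter entry (Comp has none, and Lect1 is listed under its current symbol Cnmd), 4 held GGGCGG, the core of GC boxes, on either strand within 300 bases that end 50 bases after the start. The share over all 32851 promoters of that length was 35.7%. The TATA motif TATAAA was found in Chad alone, at 1 of 9 against 13.6% of all promoters. Of the SOX core motifs, ACAAAG was in 0 of 9 (18.7% of all) and AACAAT in Epyc alone (10.7% of all). The ratio of observed to expected CpG ran from 0.047 in Lect1 to 0.795 in Acan, with a median of 0.22 against 0.384 over all promoters. These matches describe the letters in the window and nothing about the factors that bind there.

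Levels per length were compared with the authors' RPKM, reads scaled by gene length and library size. Matn1 had the highest mean, 136 ± 87.1 RPKM (SD over all 6 libraries), and Matn3 the lowest, 5.08 ± 3.01. Between them came Matn4 (86.5 ± 19.4), Lect1 (64.9 ± 33.6), Acan (54.6 ± 22.9), Comp (20.3 ± 10.5), Hapln1 (19 ± 6.82), Ucma (14.7 ± 9.16), Chad (13.6 ± 3.44) and Epyc (8.48 ± 2.68). Each member's range over libraries overlapped that of the next in this order. Within a library, Acan stood above Comp, Chad above Epyc and Epyc above Matn3 in 6 of 6 libraries, and Matn1 stood above Matn4 in 4 of 6. The exceptions were WT 14 and cKO 37, where Matn4 was the most abundant member. For scale, the cartilage collagen gene Col2a1 ranged from 51.3 to 902 RPKM and Col1a1 from 7229 to 15448.

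Summed over the 10 genes, the cartilage matrix transcripts were 1164, 2450.5 and 1516 CPM in WT 14, WT 27 and WT 29 and 1814, 1984 and 695 CPM in cKO 8, cKO 10 and cKO 37. As a share of all gene counts this was 0.111%, 0.251% and 0.146% in WT and 0.176%, 0.204% and 0.0746% in cKO. The highest library was WT 27 and the lowest cKO 37, 3.52-fold apart, and each group held low and high libraries. The group means were 1710.1 ± 665 CPM (WT) and 1498 ± 700.1 CPM (cKO, SD, n = 3 each), a log2 ratio of -0.19 against a spread within groups of 0.71 on the log2 scale. Without WT 27 the ratio was 0.16 and without cKO 37 it was 0.15, so its sign depended on a single library. The sum mostly reflects its most abundant genes. By library, Acan made up 23.4% to 38.2% of it, Matn4 15.4% to 30.1% and Matn1 9.88% to 28.8%. No other member exceeded the 12.7% that Hapln1 reached in cKO 37.

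Aggrecan and its link protein come first by role. Acan (chromosome 7, 79053483 to 79115099, mm10), the core protein of the main proteoglycan, was at 444, 764 and 556 CPM in WT 14, WT 27 and WT 29 and at 588, 709 and 162 CPM in cKO 8, cKO 10 and cKO 37. One library, cKO 37, lay far below the other 5, which overlapped between groups. On the log2 scale the cKO to WT ratio, given throughout as log2 fold change ± standard error, came to -0.27 ± 0.63 (interval of 95% confidence -2.0 to 1.45, edgeR quasi-likelihood adjusted p = 0.823). Hapln1 (chromosome 13, 89540636 to 89611832), which locks aggrecan onto hyaluronan, was at 79.9, 185 and 115 CPM in WT and at 131, 169 and 88.3 CPM in cKO. Here WT 14 and cKO 37 were nearly equal at the low end, and the log2 fold change was 0.03 ± 0.43 (-1.13 to 1.19, edgeR adjusted p = 0.975).

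The matrilins, oligomeric adaptors with von Willebrand factor A domains, differed among themselves in how widely they varied. Matn1 (chromosome 4, 130944385 to 130955476), the matrilin most restricted to cartilage, was at 115, 666 and 375 CPM in WT 14, WT 27 and WT 29 and at 522, 420.05 and 85.2 CPM in cKO 8, cKO 10 and cKO 37. It spanned 7.81-fold over the libraries, 5.79-fold within WT and 6.12-fold within cKO, and its log2 fold change was -0.17 ± 0.99 (-2.87 to 2.53, edgeR adjusted p = 0.93). Matn4 (chromosome 2, 164389393 to 164405160), which is expressed in many connective tissues, was at 345, 377 and 250 CPM in WT and at 287, 320.5 and 209 CPM in cKO. Its span was only 1.80-fold, and WT 14, the second lowest library for Matn1, was the second highest for Matn4 (-0.25 ± 0.22, -0.79 to 0.29, edgeR adjusted p = 0.506). Matn3 (chromosome 12, 8947929 to 8972028), a matrilin of developing cartilage, was at 11.9, 33.2 and 15.9 CPM in WT and at 16, 35.9 and 9.02 CPM in cKO. Its high libraries were WT 27 and cKO 10, with cKO 8 as low as WT 29 (0.00 ± 0.72, -1.96 to 1.96, edgeR adjusted p = 0.999).

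Comp (chromosome 8, 70373548 to 70382066), a thrombospondin that bridges collagen fibrils and is also made by tendon, was at 37.8, 107.5 and 64.4 CPM in WT and at 76.4, 89 and 19.2 CPM in cKO. The libraries fell in the same order as for Acan, with a wider span of 5.59-fold, and the log2 fold change was -0.19 ± 0.75 (-2.24 to 1.86, edgeR adjusted p = 0.899). Of the 6 tendon and ligament markers, Tnmd was between 62.7 and 90.9 CPM and Scx between 11.7 and 24.5, both highest in WT 14 (Scx was called lower in cKO by DESeq2 alone of the tools, adjusted p = 0.0259, and with the collagen IX covariate), and Thbs4 was highest in WT 27 (10.8 CPM against 0.903 to 4.64). The sum of the 6 markers was 977 to 1110 CPM in WT and 524 to 697 CPM in cKO, mostly Egr1, an early response gene of many cells. Egr1 was the 1 of 6 called (-0.91 ± 0.11, edgeR adjusted p = 0.00166), where 12.4% of all tested genes were called. The part of these markers in the Comp values was not tested.

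Lect1 (chromosome 14, 79637690 to 79662170) encodes chondromodulin, a membrane protein whose secreted part keeps cartilage free of vessels. It was at 65.8, 219 and 93.2 CPM in WT and at 133, 164 and 68.3 CPM in cKO, so WT 14 and cKO 37 were again the low pair (-0.05 ± 0.63, -1.77 to 1.67, edgeR adjusted p = 0.97). Ucma (chromosome 2, 4976122 to 4985748), a Gla protein of cartilage, was at 7.41, 35.9 and 11.5 CPM in WT and at 15.2, 20.4 and 12.9 CPM in cKO. Its span lay within WT (4.85-fold against 1.58-fold within cKO), and WT 27 stood alone above the other 5 libraries (-0.18 ± 0.70, -2.10 to 1.75, edgeR adjusted p = 0.899).

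The leucine-rich repeat proteins varied least beside Matn4. Chad (chromosome 11, 94565074 to 94569127), chondroadherin, which binds collagen and chondrocyte integrins, was at 41.4, 33.9 and 20.1 CPM in WT and at 25.8, 32.5 and 26.4 CPM in cKO. It was the only member with its highest value in WT 14, and cKO 37 was not low (-0.17 ± 0.30, -0.95 to 0.61, edgeR adjusted p = 0.762). Without WT 29 the adjusted p was 0.0907, the lowest value any member reached under the alternatives run. Epyc (chromosome 10, 97644068 to 97681900), epiphycan, a small proteoglycan of growth cartilage, was at 15.9, 28.1 and 14.5 CPM in WT and at 19.8, 24 and 14.6 CPM in cKO (0.00 ± 0.35, -0.91 to 0.91, edgeR adjusted p = 0.999). By the bounds of whole genes in the GENCODE annotation, Chad overlaps Acsf2 on the opposite strand, Matn4 Rbpjl, Epyc Gm10754 and Hapln1 Gm8546. The use of strand in counting is not given, so reads from any exon stretch that such a pair shares may not be told apart. Whether their exons overlap was not examined. Acsf2 was between 29.5 and 40.7 CPM and Rbpjl between 4.03 and 10.7 CPM.

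**Figure D1:**
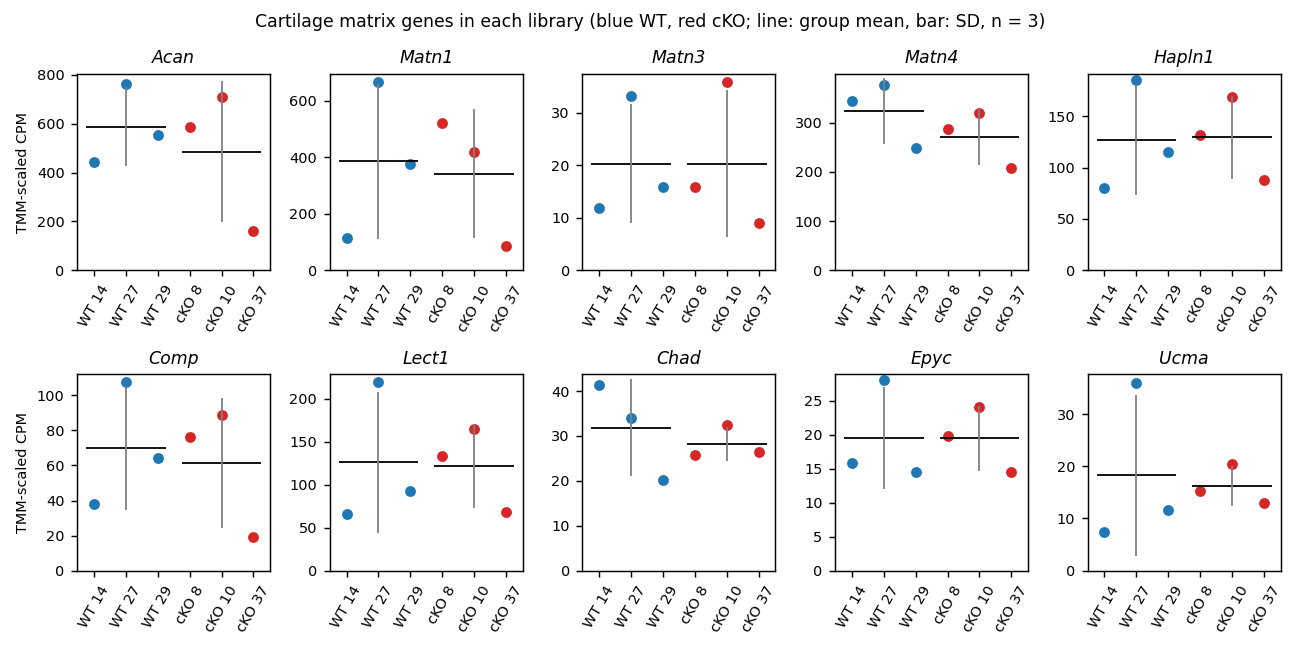
TMM-scaled CPM (vertical axis, from 0) of each of the 10 genes by library (blue points WT, red points cKO). Lines mark group means (horizontal) and SDs (vertical, n = 3). In every panel the points of the groups overlap, and WT 27 is highest in 8 of 10 panels.

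No member passed the threshold of an adjusted p under 0.05, and none had groups that did not overlap. The counts were 0 of 10 called, where 12.4% of all tested genes were called, and 0 of 10 with separate groups, where 34.6% of all tested genes had them. With edgeR 0 members had an unadjusted p under 0.05, where 4675 of all 16089 tested genes did. DESeq2 and limma voom also called 0 members, and over all tested genes they called 2606 and 1936. The median log2 fold change of the members was -0.17, beside 0.01 over all tested genes. It became 0.38 without WT 27 and 0.20 without cKO 37. Of the members, 9 lay below 0 and 1 above (7842 and 8247 of all tested genes). The 9 include Epyc (-0.0005), Matn3 (-0.003) and Lect1 (-0.05). The members shared much of their variation between libraries, so their signs are not separate observations. The intervals differed in width: those of Matn4, Chad and Epyc stayed between -0.95 and 0.91 on the log2 scale, while that of Matn1 ran from -2.87 to 2.53 and so included differences of several fold in both directions.

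The spread of these genes was high beside that of most tested genes. The SD of log2 CPM within groups was 0.32 in Matn4, 0.40 in Chad, 0.45 in Epyc, 0.54 in Hapln1, 0.79 in Lect1, 0.86 in both Acan and Ucma, 0.89 in Matn3, 1.01 in Comp and 1.36 in Matn1. The median over all 16089 tested genes was 0.122, and over the 9351 with a mean of at least 10 CPM it was 0.0864. Ranked among those 9351 genes, Matn4 stood at the 98.1st percentile, the lowest of the members, and Matn1 at the 99.9th. Such a spread was not particular to the members. It was 1.68 in Col2a1, with a median of 0.72 over the 8 cartilage collagens. The osteoblast marker gene Alpl reached 0.46 (99.3rd percentile), above Matn4, Chad and Epyc, though the median over the 12 osteoblast markers was 0.20. Rn45s, the ribosomal RNA precursor, took 12% of gene counts in cKO 8, 10.5% in WT 14 and 9.06% in cKO 37, against 6.1% to 8.1% in the others, lowest in WT 27. The total counts of WT 14 and cKO 37 lay between the smallest and the largest. The part of either in the member values was not tested.

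**Figure D2:**
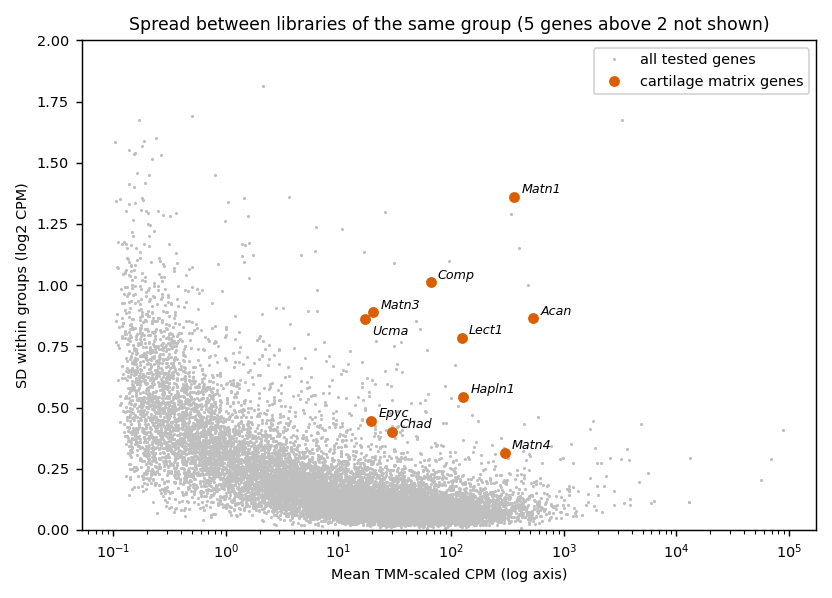
SD of log2 CPM between libraries of the same group (vertical axis) against mean TMM-scaled CPM (horizontal log axis) for all tested genes (grey) and the cartilage matrix genes (orange). The 10 genes lie between 0.32 and 1.36, above most genes of like abundance, and 5 genes with an SD above 2 are not shown.

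The members shared much of this variation. WT 27 was the highest library for 8 members, and cKO 37 was the lowest for 5, WT 14 for 3 and WT 29 for 2. Centred on each gene's own mean, the members averaged -0.45 in WT 14, 0.77 in WT 27, -0.13 in WT 29, 0.16 in cKO 8, 0.48 in cKO 10 and -0.83 in cKO 37 on the log2 scale. Lect1 and Hapln1 lay closest to that average, with root mean square differences of 0.175 and 0.177. Matn1 lay farthest (0.653), with wider swings, and Chad next (0.588), with a different order. The ratio of Matn4 to Matn1 counts was between 0.549 and 0.763 in WT 27, WT 29, cKO 8 and cKO 10, but 3.00 in WT 14 and 2.45 in cKO 37. The same held for Chad relative to Matn1, at 0.0494 to 0.0774 in those 4 libraries, 0.36 in WT 14 and 0.31 in cKO 37. Matn1 was itself low in WT 14 and cKO 37, and the ratio to it was highest there for every other member. For Hapln1 it was 0.69 in WT 14 and 1.04 in cKO 37, against 0.25 to 0.40 in those 4 libraries. The rise is thus not particular to Matn4 and Chad. These ratios are of CPM without correction for length and serve only to compare libraries.

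Of the cartilage collagens, chains of the fibrils these proteins bind, Col2a1 and the collagen IX genes were highest in WT 27 and lowest in cKO 37, with WT 14 next lowest. Col2a1, the main fibril chain, was at 1370.1, 5935 and 3547 CPM in WT 14, WT 27 and WT 29 and at 4172, 4520.2 and 344 CPM in cKO 8, cKO 10 and cKO 37, a span of 17.25-fold. The chains of collagen IX, which decorates those fibrils, spanned 4.75-fold (Col9a1), 8.65-fold (Col9a2) and 6.62-fold (Col9a3). Of the 8 collagen genes listed, 0 passed the test, where 12.4% of all tested genes did, with a median of -0.13. Log2 fold changes were -0.26 ± 1.14 in Col2a1, -0.02 ± 0.75 in Col9a1, -0.14 ± 0.93 in Col9a2 and -0.23 ± 0.85 in Col9a3. Col11a1 (-0.07 ± 0.20), Col11a2 (-0.34 ± 0.30) and Col27a1 (-0.12 ± 0.25) varied less, with spans of 1.75-fold to 2.25-fold, and Col11a1 was highest in cKO 8 and Col11a2 in WT 29. Col10a1, the collagen of hypertrophic chondrocytes, was at only 1.72 to 2.45 CPM, slightly higher in every cKO library than in any WT library, and did not pass (0.28 ± 0.17, edgeR adjusted p = 0.308). Acan stood at 0.129 to 0.157 of the Col2a1 count in the 4 libraries rich in cartilage transcripts, at 0.324 in WT 14 and at 0.472 in cKO 37.

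**Figure D3:**
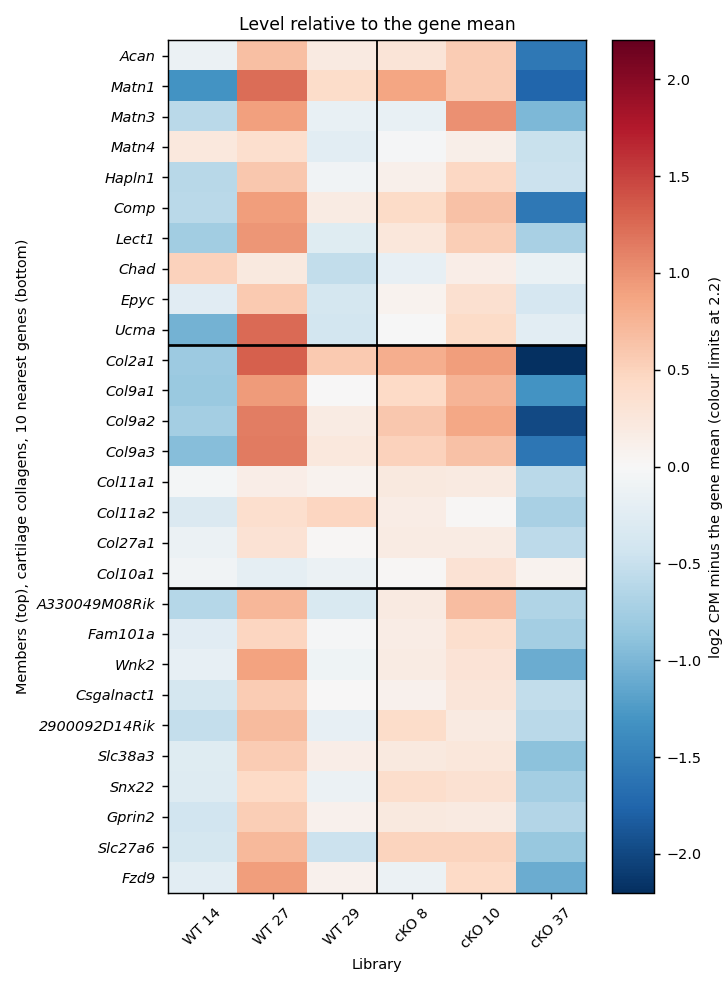
Log2 CPM minus the gene's mean over 6 libraries (colour, red above and blue below) for the members, the cartilage collagens and the 10 genes nearest the members' mean profile (rows) in each library (columns, WT left of the line). Averaged over the members, the lowest columns are cKO 37 (-0.83) and WT 14 (-0.45), followed by WT 29 (-0.13). WT 29 is below the mean in Matn3, Matn4, Hapln1, Lect1, Chad, Epyc and Ucma, and above it in Acan, Matn1 and Comp. In Chad, Epyc and Ucma it is lower than cKO 37. Matn4, Chad and Col10a1 are paler or ordered otherwise.

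Members left out, the 10 genes nearest the members' average profile among 13406 considered were A330049M08Rik, Fam101a, Wnk2, Csgalnact1, 2900092D14Rik, Slc38a3, Snx22, Gprin2, Slc27a6 and Fzd9. Their root mean square differences from it were 0.153 to 0.218 on the log2 scale over 6 libraries. Csgalnact1, which starts chondroitin sulfate chains, was at 12, 23.2 and 15.9 CPM in WT and at 16.9, 19 and 10.8 CPM in cKO. The Wnt receptor gene Fzd9 was at 12.7, 28 and 15.9 CPM in WT and at 13.5, 20.1 and 6.94 CPM in cKO. Both were highest in WT 27 and lowest in cKO 37, as is the average profile by which they were chosen, so this is no separate observation.

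The summed levels of other cell type markers spanned less than the 3.52-fold of the members. The summed osteoblast markers (12 genes) ran from 132420 to 179870 CPM in WT and from 99028 to 134810 CPM in cKO, and 90.7% to 95.6% of it was Col1a1 and Col1a2. Without those collagens it was 6963 to 8620.4 CPM in WT and 8018.5 to 9242 CPM in cKO. Of the 12 genes, Mepe, an osteocyte matrix protein, was called higher (0.40 ± 0.10, edgeR adjusted p = 0.025) and Sp7 lower (-0.37 ± 0.09, 0.0211). Neither call held without WT 29, cKO 10 or cKO 37, and the Mepe call was also lost without WT 27 and the Sp7 call without cKO 8. With DESeq2, Ibsp passed as well, higher in cKO (0.34, adjusted p = 0.0107). The endothelial sum (5 genes) ran from 462 to 512 CPM in WT and from 473 to 583 CPM in cKO, and the muscle sum from 8.91 to 9.53 and from 8.12 to 9.93 CPM. The macrophage and osteoclast sum (6 genes) was 2117 to 2801 CPM in WT, highest in WT 27, and 1735 to 1970.4 CPM in cKO. Of its 6 genes, 2 were called lower by edgeR and 4 by DESeq2. Over all 16089 tested genes, edgeR called 1997 (12.4%) and DESeq2 2606 in either direction. Neural and glial markers (8 genes) were also highest in WT 27, at 48.2 CPM against 27.6 to 39.8 in the others. The part of these markers in the member values was not tested.

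**Figure D4:**
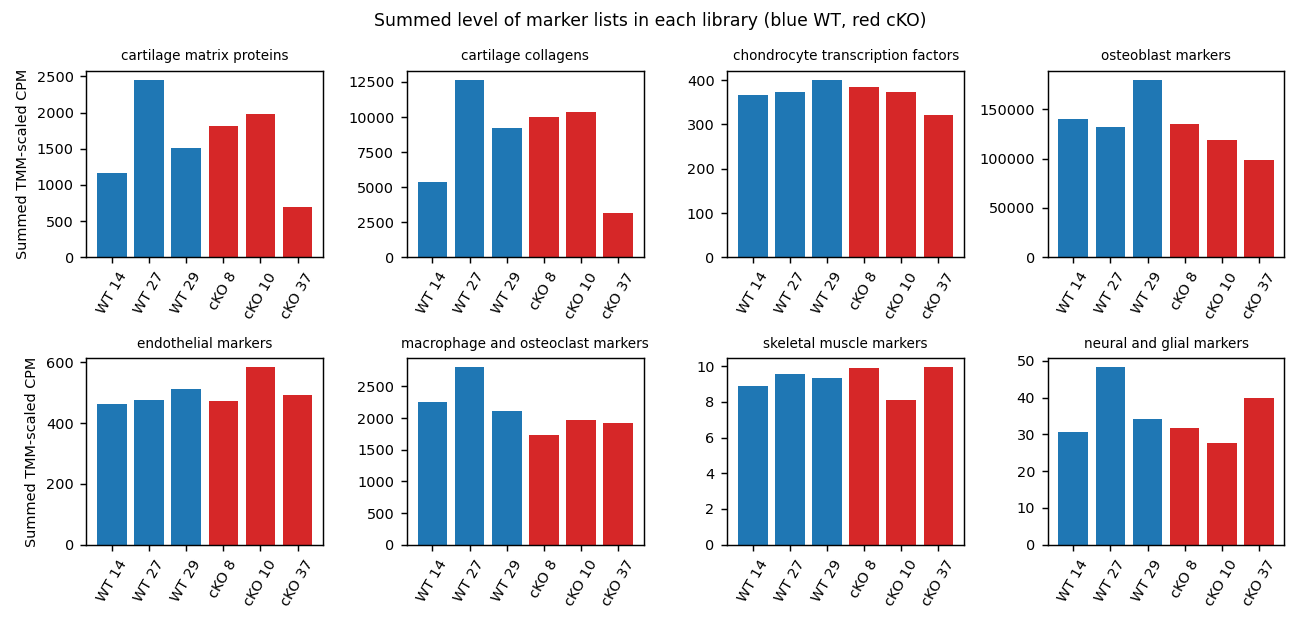
Summed TMM-scaled CPM (bars from 0) of 8 marker lists in each library (blue WT, red cKO). The cartilage matrix and cartilage collagen sums are lowest in WT 14 and cKO 37, while the muscle sum stays between 8.12 and 9.93 CPM. The chondrocyte transcription factor sum is also lowest in cKO 37 (322 CPM) and WT 14 (366 CPM), and the osteoblast sum in cKO 37 (99028 CPM). The macrophage and osteoclast sum is lowest in cKO 8 and the neural and glial sum in cKO 10.

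To compare the groups at a common cartilage level, the summed collagen IX level of each library was added to the model as a covariate, an alternative chosen after the data were seen. That level was 577, 2132 and 1122 CPM in WT 14, WT 27 and WT 29 and 1460 (cKO 8), 1713 (cKO 10) and 348 (cKO 37). The standard error of the Matn1 difference went from 0.99 to 0.23 and that of Comp from 0.75 to 0.07, while those of Chad (0.30 and 0.34) and Ucma (0.70 and 0.57) moved little. Again 0 of 10 members passed. The difference was 0.06 ± 0.23 in Matn1 (-0.55 to 0.67), -0.13 ± 0.07 in Comp (-0.28 to 0.02, edgeR adjusted p = 0.212), -0.34 ± 0.19 in Acan (-0.82 to 0.14) and 0.17 ± 0.13 in Hapln1 (-0.16 to 0.50). Relative to collagen IX, the Comp interval thus reaches a fall of at most 0.28 on the log2 scale.

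**Figure D5:**
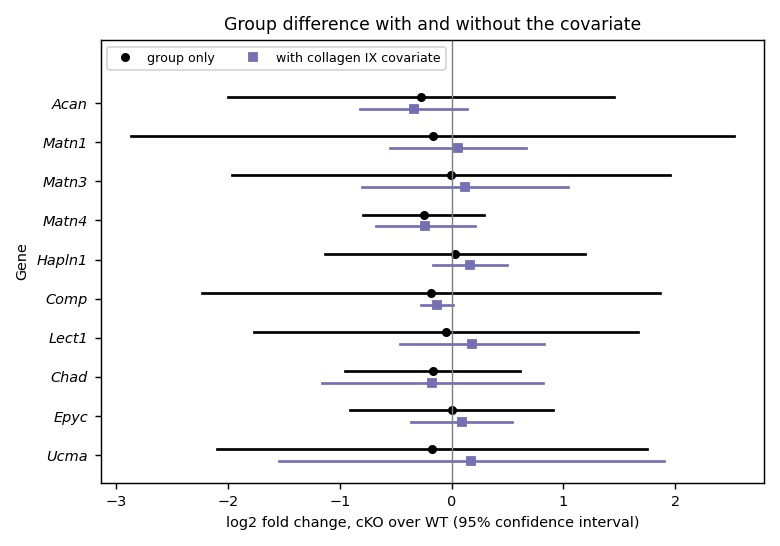
Log2 fold change of cKO over WT (horizontal axis) with its 95% confidence interval for each gene, from the model with group only (black) and with the collagen IX covariate (purple). All intervals include 0, and that of Comp goes from -2.24 to 1.86 down to -0.28 to 0.02.

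Around these structural genes, the enzymes that build chondroitin sulfate, the sugar chain of aggrecan, had 22 tested members. Of these 6 fell and 0 rose, where 12.4% of all tested genes were called in either direction (median -0.13 against 0.01 over all genes). Chsy1, a chondroitin polymerising enzyme, was at 105, 98 and 112.5 CPM in WT and at 79, 81.1 and 71.7 CPM in cKO (-0.44 ± 0.07, edgeR adjusted p = 0.00484), with no overlap. On the log2 scale its relative Chsy3 fell by 0.49 ± 0.09 (adjusted p = 0.00705), the sulfotransferase gene Chst11 by 0.46 ± 0.10 (0.0155) and the polymerising factor gene Chpf by 0.32 ± 0.07 (0.0205), all by edgeR. The linkage region enzyme genes B3gat3 (-0.21 ± 0.06) and B3galt6 (-0.34 ± 0.10) completed the 6 (edgeR adjusted p = 0.0403 and 0.0451). Leaving out WT 14, WT 27 or cKO 8 left 3 enzymes called lower, leaving out WT 29 left 2, and leaving out cKO 10 or cKO 37 left 4, as did upper-quartile scaling. With the collagen IX covariate 7 were called lower and 1 higher. Chst11 was lost without WT 27 or WT 29, Chpf without WT 14, WT 29 or cKO 8, and B3gat3 and B3galt6 whichever library was left out and with upper-quartile scaling (edgeR adjusted p = 0.0503 to 0.154). Osteoblasts also make such chains, and the part of the osteoblast marker levels given above in these calls was not tested.

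Among 18 proteases and inhibitors that act on aggrecan and other cartilage matrix, 1 rose and 2 fell, a share near the 12.4% called over all tested genes. Adamts1, an aggrecan-cleaving metalloproteinase, fell from 147 ± 22.7 to 71.5 ± 5.57 CPM (-1.04 ± 0.11, edgeR adjusted p = 0.00202). Adamts15, of the same family, fell by 0.65 ± 0.16 and the stromelysin gene Mmp3, at 0.929 to 2.55 CPM, rose by 0.91 ± 0.23 (edgeR adjusted p = 0.0274 and 0.0263). The Adamts15 call ended when WT 27, WT 29, cKO 8 or cKO 10 was left out, and the Mmp3 call when WT 14, WT 27, cKO 8 or cKO 10 was (edgeR adjusted p = 0.0537 to 0.113). Without cKO 10, Mmp9 passed (-0.78, edgeR adjusted p = 0.0461). Adamts7 was -0.16 ± 0.06 (edgeR adjusted p = 0.128). Of 14 relatives of the members outside cartilage, 1 fell (12.4% called over all genes): Vcan, versican, the lectican of loose connective tissue, from 414 ± 6.55 to 317 ± 29.3 CPM (-0.39 ± 0.08, edgeR adjusted p = 0.0119). Hapln3 (0.39 ± 0.19), Optc (-0.43 ± 0.27) and Hapln2 (0.68 ± 0.47) did not pass.

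Of 12 tested chondrocyte transcription factor genes, 1 fell and 0 rose (median 0.11, with 12.4% called over all genes). It was Runx3, a factor shared with other skeletal and immune cells (-0.27 ± 0.08, edgeR adjusted p = 0.0426), lost whichever library was left out and with upper-quartile scaling (0.0544 to 0.141). Trps1 (-0.17 ± 0.07), Shox2 (1.12 ± 0.48) and Nkx3-2 (1.03 ± 0.53) did not pass, though Shox2 did without cKO 10 (adjusted p = 0.0471) and Nkx3-2 with the covariate (0.0446). Sox9, the master factor of chondrocytes, was at 26.8, 39.3 and 32.3 CPM in WT and at 31.8, 33.1 and 12.6 CPM in cKO, with cKO 37 lowest here too. The list did not share 1 order. Sox5, Sox6, Trps1 and Runx3 were also lowest in cKO 37, but Shox2 (1.30 CPM) and Barx1 (1.69 CPM) were highest there, and Mef2c was lowest in WT 27. The sum of the list spanned only 1.24-fold. Sox9 and the genes set beside it here were singled out after their values were seen. Of 10 hypertrophic and growth plate genes tested, 1 rose (12.4% called over all genes): Mmp13, a collagenase also made by osteoblasts, from 941 ± 86.4 to 1462 ± 344 CPM (0.64 ± 0.17, edgeR adjusted p = 0.0423), lost when any library other than cKO 8 was left out, with limma voom, with no filter on low counts and under the covariate (0.0613 to 0.167). Sik3 (-0.12 ± 0.06), Ihh (-0.32 ± 0.17) and Fgf18 (-0.59 ± 0.38) did not pass, though Fgf18 did without cKO 37 (-1.17, edgeR adjusted p = 0.0159), as did Pthlh (-0.61, 0.0434). Of 20 further secreted cartilage genes 0 passed with edgeR, with a median of -0.02. An unadjusted p under 0.05 was found in 4 of the 20, a smaller share than the 4675 of 16089 over all tested genes. Those were Edil3 (0.24 ± 0.08), Itih5 (-0.45 ± 0.16), Prg4 (1.02 ± 0.38) and Cilp2 (-0.60 ± 0.22), of which DESeq2 called Itih5 and Cilp2 lower (adjusted p = 0.00705 and 0.00126). With edgeR, Edil3 passed without WT 14 (0.0281), Mgp, a Gla protein that inhibits calcification, without WT 27 (0.52, adjusted p = 0.0488), Prg4 without cKO 37 (0.0353) and Cilp2 without WT 29 (0.00708). Against a minimum change of 1.2-fold, Adamts1 (adjusted p = 0.0135) still passed, and the other called enzyme, protease, relative, transcription factor and growth plate genes did not.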

How the data were processed

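RNA-seq counts per gene and RPKM values were deposited by the authors in 1 table for 6 libraries. Per the submitters' processing notes, bcl2fastq, TopHat2 2.0.6, HTSeq and the mm10 build were used. The sources used here give neither their settings nor the annotation, nor whether counting was strand-specific. The RPKM values deposited by the authors, scaled by coding length, served only to order genes by level. Groups were taken from the sample titles.

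Counts were tested as deposited with the edgeR 4.0.16 quasi-likelihood test (robust, R 4.3.3), with group as the only term, TMM scaling, filterByExpr (minimum count 10) and Benjamini-Hochberg adjustment over 16089 genes at a threshold of 0.05. Log2 CPM used a prior count of 2. The pipeline was tested on simulated data. Alternatives were other scalings and filters, DESeq2 1.42.0, limma 3.58.1 voom, a 1.2-fold minimum change, a threshold of 0.1, leaving out Rn45s and leaving out each library. Halved counts and the collagen IX covariate were added after the data were seen. The members and gene lists were chosen with earlier results of these data known. Named are all members, Ezh2, every cartilage collagen, up to 4 genes with the smallest p in each other list (exceptions are the marker lists, further genes that passed and genes said to be chosen after their values were seen), and the 10 genes nearest the mean profile. Promoters are from RefSeq (GRCm38.p6), where 9 of 10 members matched.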

Additional observations from a re-analysis of the deposited data

How the results depend on the processing

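No member passed the threshold under any of the alternatives run. Of 150 alternative member log2 fold changes (leaving out the 1.2-fold test, which keeps the fitted values), 120 kept their direction and 30 reversed. Called genes over the whole table numbered 1997, 112 against a minimum change of 1.2-fold, 3277 at an adjusted p of 0.1, and 586 (without cKO 8) to 1985 (without cKO 37) when 1 library was left out. The summed member level gave -0.45 to 0.16 when 1 library was left out. With the collagen IX covariate the sign reversed for Matn1 (0.0598), Matn3 (0.12), Lect1 (0.18), Epyc (0.0887), Ucma (0.18) and Col9a1 (0.11, relative to a sum that includes Col9a1 itself). With upper-quartile scaling it reversed for Matn3 (0.0209), Epyc (0.0253) and Col9a1 (0.0044). With a mean CPM of at least 1 it reversed for Matn3 (0.0048) and Epyc (0.0079), with limma voom for Lect1 (0.0510), Epyc (0.0369) and Ucma (0.14), and with halved counts for Epyc (0.0033). The cause was not tested. Leaving out 1 library gave log2 fold changes of -0.65 to 0.14 (Acan), -0.61 to 0.48 (Matn1), -0.71 to 0.54 (Matn3), -0.22 to 0.40 (Hapln1), -0.56 to 0.26 (Comp), -0.36 to 0.61 (Lect1), -0.42 to 0.0659 (Chad), -0.19 to 0.35 (Epyc) and -0.55 to 0.76 (Ucma). For the collagens it gave -0.69 to 0.29 (Col2a1), -0.41 to 0.53 (Col9a1), -0.57 to 0.45 (Col9a2), -0.61 to 0.38 (Col9a3), -0.20 to 0.14 (Col11a1) and -0.24 to 0.0911 (Col27a1). No paired analysis was possible because the groups share no replicate numbers. The effect of depth on the member intervals was not tested.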
